A study of Mus musculus with 6 samples.

Results

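Sim1, Nkx2-1, Nr5a1, Pax6 and Six3 are 5 genes of transcription factors that build the mouse hypothalamus, and their DNA methylation was measured in hypothalamic tissue of 16 week old offspring. The genes were chosen as developmental hypothalamic regulators with earlier results of these data known, and their probes were taken as every non-control probe inside a fixed window around each gene. The windows, in the mm9 build that the array positions use, were chr10:50600000-50710000 for Sim1, chr12:57620000-57645000 for Nkx2-1, chr2:38545000-38575000 for Nr5a1, chr2:105500000-105540000 for Pax6 and chr17:86005000-86030000 for Six3. They held 83 of the 174638 probes of the array, 8 at Sim1, 25 at Nkx2-1, 8 at Nr5a1, 29 at Pax6 and 13 at Six3.

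The inulin group was offspring of dams that the labels give as maternal inulin treatment (n = 3 arrays), and the obesity group was offspring of dams given as maternal obesity and also as maternal high fat diet (n = 3 arrays). Inulin is a fermentable plant fibre. The design text sets inulin treatment dams against obesity dams, and neither strain, sex, dose nor litter is given in the labels, so p-values measure only the spread between these samples. Methylated DNA was enriched with an antibody (MeDIP, methylated DNA immunoprecipitation), labelled with Cy5 and hybridised together with the Cy3-labelled input DNA of the same sample. The tissue is a mixture of cell types, and a change in methylation within a cell type cannot be told apart from a change in the share of cells.

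Sim1 encodes a basic helix-loop-helix factor needed for neurons of the paraventricular and supraoptic nuclei, and a reduced gene dose is known to cause overeating and obesity in mice. Nkx2-1 encodes a homeodomain factor that patterns the ventral hypothalamus and also acts in thyroid and lung. Nr5a1 encodes the nuclear receptor SF-1, which marks and is needed to form the ventromedial nucleus, a centre of energy balance. Pax6 encodes a paired-domain and homeodomain factor of eye and forebrain, and Six3 a homeodomain factor of the anterior forebrain that represses Wnt signalling. Cytosine methylation in mammals lies mainly at CpG dinucleotides, and CpG-rich starts of developmental regulators are usually little methylated.

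All 5 symbols were found in the RefSeq gene table (GRCm38.p6), each as a protein-coding gene on the chromosome of its window. RefSeq promoters, from 250 bases before to 50 bases after the annotated start, were at hand for 4 of the 5 genes and are shown because the antibody recovers DNA by its methylated cytosines. Capitals mark each CpG. The Sim1 promoter is chr10:50895401-50895700 on the plus strand, that of Nkx2-1 is chr12:56536859-56537158 on the minus strand, those of Pax6 are chr2:105668646-105668945 and chr2:105682213-105682512 on the plus strand, and that of Six3 is chr17:85620584-85620883 on the plus strand, all in GRCm38.p6.
Sim1: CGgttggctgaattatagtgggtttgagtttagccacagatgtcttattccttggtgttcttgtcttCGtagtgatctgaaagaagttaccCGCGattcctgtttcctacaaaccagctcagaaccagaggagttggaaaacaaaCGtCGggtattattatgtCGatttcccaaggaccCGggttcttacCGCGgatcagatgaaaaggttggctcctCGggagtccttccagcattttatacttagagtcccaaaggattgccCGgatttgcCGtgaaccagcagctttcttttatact
Nkx2-1: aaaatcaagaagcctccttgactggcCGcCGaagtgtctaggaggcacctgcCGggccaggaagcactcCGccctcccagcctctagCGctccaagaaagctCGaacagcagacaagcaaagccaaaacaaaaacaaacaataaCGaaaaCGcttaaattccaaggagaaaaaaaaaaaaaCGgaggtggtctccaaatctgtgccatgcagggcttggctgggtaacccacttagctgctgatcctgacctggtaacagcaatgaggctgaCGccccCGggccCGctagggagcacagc
Pax6 start 1: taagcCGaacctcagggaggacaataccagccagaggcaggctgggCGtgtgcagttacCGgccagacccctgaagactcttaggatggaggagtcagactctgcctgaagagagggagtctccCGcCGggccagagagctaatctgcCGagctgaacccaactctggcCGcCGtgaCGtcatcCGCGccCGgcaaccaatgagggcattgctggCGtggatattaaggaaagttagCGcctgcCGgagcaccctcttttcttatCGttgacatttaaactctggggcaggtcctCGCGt
Pax6 start 2: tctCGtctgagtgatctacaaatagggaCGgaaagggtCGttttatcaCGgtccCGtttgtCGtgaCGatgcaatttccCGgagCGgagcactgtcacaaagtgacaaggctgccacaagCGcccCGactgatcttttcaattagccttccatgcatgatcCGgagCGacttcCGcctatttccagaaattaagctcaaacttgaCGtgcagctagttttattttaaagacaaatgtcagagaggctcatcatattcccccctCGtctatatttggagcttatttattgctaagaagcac
Six3: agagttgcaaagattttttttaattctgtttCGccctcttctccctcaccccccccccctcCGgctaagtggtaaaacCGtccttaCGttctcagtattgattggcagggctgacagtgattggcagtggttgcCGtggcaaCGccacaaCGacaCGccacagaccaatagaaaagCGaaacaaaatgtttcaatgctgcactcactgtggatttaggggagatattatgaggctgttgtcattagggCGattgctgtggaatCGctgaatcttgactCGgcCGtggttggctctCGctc

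These promoters held 13 CpGs at Sim1, 12 at Nkx2-1, 18 and 16 at the 2 Pax6 starts and 14 at Six3. The median over 32851 mouse promoters of the same 300 bases was 7 CpGs. At least as many CpGs as at Sim1 were held by 37.9% of those promoters, as at Nkx2-1 by 39.6%, as at the first and second Pax6 start by 29.7% and 33%, and as at Six3 by 36.3%. CG was counted on the strand shown, and it reads the same on the other strand. The array positions are in another build than these sequences, so the probes were not placed on them, and whether a probe lies in an exon or an intron was not analysed here.

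The probes of the 5 genes fell into 8 regions, each a run of 3 or more probes with gaps of up to 500 bp from start to start. Sim1 had 1 region of 8 probes (chr10:50614172-50615808), and Nkx2-1 had region 1 of 8 probes (chr12:57629923-57631505) and region 2 of 17 probes (chr12:57635597-57639163). Nr5a1 had 1 region of 8 probes (chr2:38569566-38571213). Pax6 had region 1 of 9 probes (chr2:105507763-105509472), region 2 of 8 (chr2:105510003-105511587) and region 3 of 12 (chr2:105514375-105516742). Six3 had 1 region of 12 probes (chr17:86017251-86020035) and 1 probe outside it. All later positions are in mm9.

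The ratio is the log2 of the MeDIP over the input processed signal, set to a median of 0 on each array. Of the 83 probes, 69 had a MeDIP signal and 76 an input signal well above background on all 6 arrays, and none was saturated. At 9 probes, 6 of them at Pax6, the MeDIP signal was well above background on no array. The input was well above background on all 6 arrays at 5 of those 9 probes, whose ratio is an upper bound, on 4 or 5 arrays at 3 more, and on none at the Pax6 probe from chr2:105508368, whose ratio is bounded on neither side. By the mean ratio over the 6 arrays the 8 regions stood between the 56.4th and the 92.4th percentile of all 22574 regions, lowest at Nkx2-1 region 1 and highest at Pax6 region 2. Over all probes of an array, 94.4% to 96.4% had input well above background. The interquartile range of the ratio over all probes was 1.37 to 1.39 on the inulin arrays and 1.62 to 1.89 on the obesity arrays, without overlap.

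The file headers give 1 scan time for the 3 inulin arrays, another for obesity arrays 1 and 3 and a different one for obesity array 2. Arrays that share a scan time were taken here as read in 1 slide scan. Slide scan and group cannot be told apart, since no scan held both groups. This applies to every difference below, which is given as inulin minus obesity.

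No region of the 5 genes passed the threshold of 0.05 on the ratio (limma, Benjamini-Hochberg over all 22574 regions). The count was 0 of 8, where 7.42% of all regions passed (5.61% as higher and 1.81% as lower), and 1 of 8, the Nr5a1 region, had an unadjusted p under 0.05, where 28.6% of all regions did. The median difference was -0.066 over the 8 regions and 0.033 over all regions. Of all regions ranked by mean ratio and cut into 5 equal groups, 18% of the lowest group passed, against 3.94%, 2.59% and 5.6% of the upper 3, which held 2, 4 and 2 of the regions of the 5 genes. The median difference was 0.023, -0.015 and -0.087 in these upper 3 groups, against 0.21 and 0.092 in the lower 2. In all 8 regions the ratios of the groups overlapped, where 35.0% of all regions had groups that did not overlap.

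Nr5a1 had the widest difference of the 8 regions. Its ratio was 0.53, 0.58 and 0.26 on the inulin arrays, against -0.0025, 0.29 and -0.18 on the obesity arrays. Inulin arrays 1 and 2 were above every obesity array, and inulin array 3 was just below obesity array 2. The means were 0.46 ± 0.17 and 0.035 ± 0.23 (SD, n = 3 each), a difference of 0.42 (SE 0.13, 95% confidence interval 0.13 to 0.71, limma adjusted p = 0.075). Of all regions, 94.9% differed by less in either direction.

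One Nr5a1 probe, the first of the region, had no value on inulin array 2 and obesity array 2, where its spots were marked as outliers. Over the 7 probes measured on all 6 arrays the Nr5a1 ratio was 0.60, 0.58 and 0.34 on the inulin arrays, against 0.050, 0.29 and -0.11 on the obesity arrays. On these probes the groups did not overlap, where 35.0% of all regions had no overlap on the means over all their measured probes. The difference of 0.43 (SE 0.11) passed the threshold (limma adjusted p = 0.0452), in a fit over such probes that called 10.4% of all regions. That fit was chosen after the data were seen. Taken as 1 value per array, the same 7-probe mean gave an exact permutation p = 0.1 (two-sided), the smallest that 3 against 3 arrays allow.

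The Nr5a1 difference was uneven along the region. At the second probe the difference was -0.32, and at the third the difference was 0.013. At the other 6 probes the inulin mean was higher, and at 5 of the 7 probes with all arrays measured every inulin array was above every obesity array, a separation in that direction found at 19.0% of all probes. The 4 probes at the end of the region, from chr2:38570487 on, differed by 0.56, 0.68, 1.14 and 0.69, and none passed over all probes (limma adjusted p = 0.0598, 0.0799, 0.0522 and 0.0615).

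The probe with the lowest p at Nr5a1 was chr2:38570949-38570996. Its ratio was 0.49, 0.23 and -0.45 on the inulin arrays, against -0.80, -0.85 and -1.503 on the obesity arrays. The lowest inulin array was above the highest obesity array, and the difference of 1.14 had an SE of 0.28. Its MeDIP signal was well above background on 5 of the 6 arrays. At chr2:38570487-38570532, the next by p, the ratio was 0.94, 0.74 and 0.64 on the inulin arrays, against 0.041, 0.44 and 0.16 on the obesity arrays, also without overlap.

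**Figure D1:**
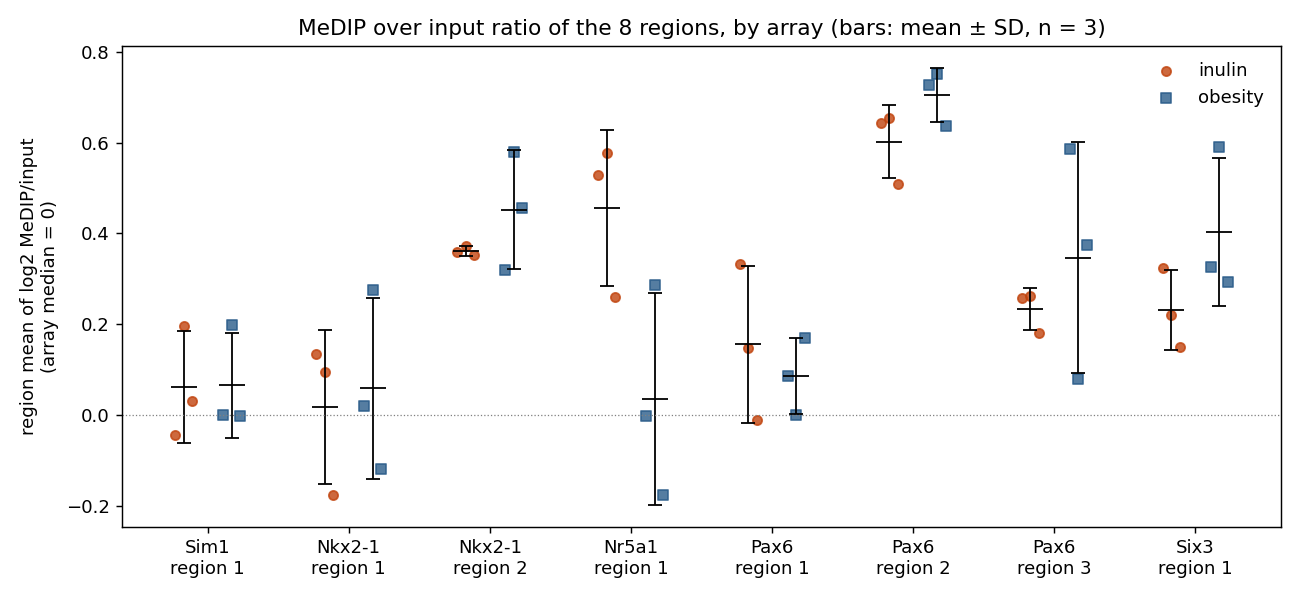
Region mean of the log2 MeDIP over input ratio on each array (y axis, log2, array median 0) for the 8 regions of the 5 genes (x axis), with inulin arrays as circles left of obesity arrays as squares and bars for the mean ± SD (n = 3). The groups overlap in all 8 regions, and the Nr5a1 means, 0.46 and 0.035, lie furthest apart.

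Nr5a1 kept a positive difference in all 18 other processings and array subsets tried, from 0.21 to 0.55. It passed the threshold in 4 of them, namely loess within arrays, without obesity array 2, with the replicate number as a block, and on the probes with a value on all arrays. Loess called 2798 of all 22574 regions, against 1675 as reported. The fit on the probes with a value on all arrays called 10.4% of all regions, against 7.42% as reported. The replicate block also called more of all regions than as reported, and the count without obesity array 2 alone is not given here. Without inulin array 1, 2 or 3, 0 regions of the whole array passed. With slide scan as a random block the difference was 0.40 (limma adjusted p = 0.239), in a fit where no region of the whole array passed. No scan held both groups, so this block cannot separate scan from group. With normexp background correction it was 0.21 (limma adjusted p = 0.135), and with all arrays set to an equal spread it was 0.48 (limma adjusted p = 0.0544). On probes with both channels well above background on all arrays it was 0.31 (limma adjusted p = 0.145).

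**Figure D2:**
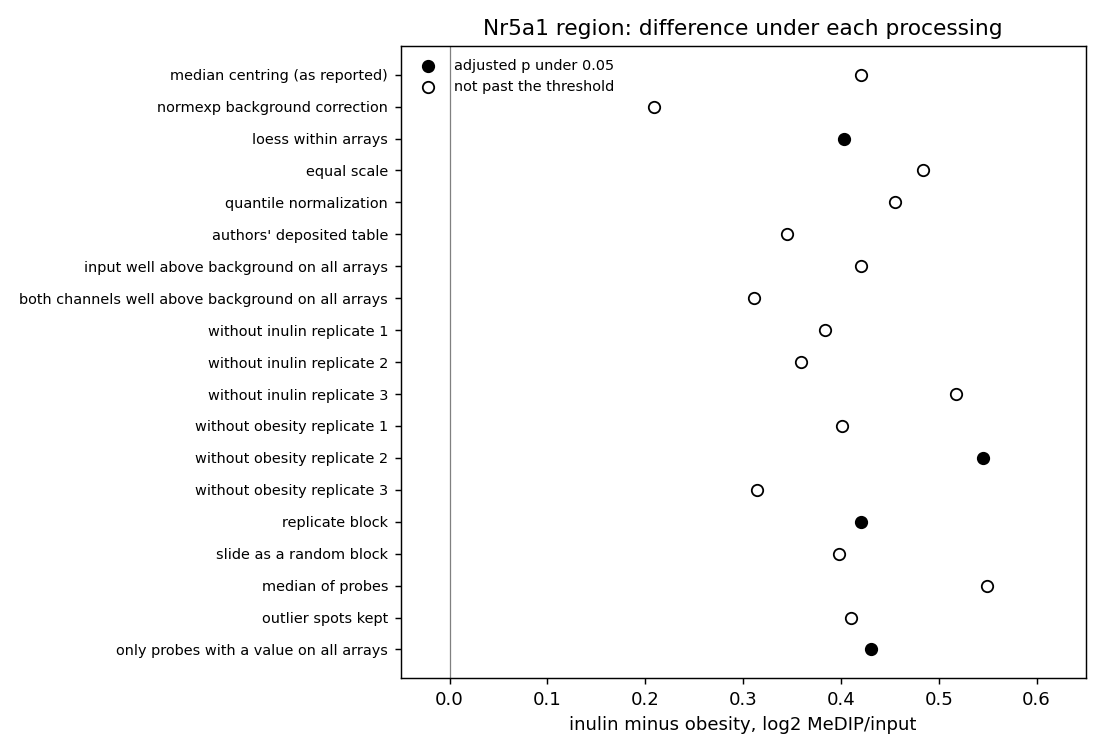
Difference of the Nr5a1 region mean (x axis, inulin minus obesity, log2 MeDIP over input) under each processing or array subset (y axis), filled where the limma adjusted p was under 0.05. All points lie above 0, between 0.21 and 0.55, and 4 alternatives are filled.

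Six3 had a lower ratio on the inulin arrays that did not pass the test. Its region had a ratio of 0.32, 0.22 and 0.15 on the inulin arrays, against 0.33, 0.59 and 0.29 on the obesity arrays. Obesity array 2 stood above the rest, and inulin array 1 lay among the other obesity arrays. The difference was -0.17 (SE 0.096, 95% confidence interval -0.39 to 0.045, limma adjusted p = 0.27). Without obesity array 2 it was -0.078 (limma adjusted p = 0.531). At the 2 Six3 probes with the lowest p, chr17:86018544-86018589 and chr17:86019640-86019684, each inulin array was below each obesity array, with differences of -0.44 and -0.44 (limma adjusted p = 0.0937 and 0.0942). A separation in that direction was found at 19.0% of all probes.

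Nkx2-1 held the only single probes of the 5 genes that passed the threshold over all probes. They were 3 of its 24 tested probes and of the 79 tested in all, each lower in inulin, where 8.21% of all 170019 tested probes passed, 5.12% as higher and 3.08% as lower. An unadjusted p under 0.05 was found at 14 of the 79 probes of the 5 genes (17.7%), against 30.1% of all probes. All 3 lay in region 2. The remaining 76 tested probes of the 5 genes, with differences from -0.76 to 1.14, did not pass. Of the 73 probes with a value on all 6 arrays, 19 had groups that did not overlap, 8 with inulin above and 11 with inulin below, where 38.0% of all probes did so, 19.0% in each direction.

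The Nkx2-1 probe with the lowest p was Ch_220697_0022787, the last of the region, at chr12:57639119-57639163. Its ratio was -0.18, -0.27 and -0.30 on the inulin arrays, against 0.35, 0.39 and 0.33 on the obesity arrays. The groups were far apart for their spread, with a difference of -0.61 (SE 0.11, limma adjusted p = 0.025). It was the one of the 3 whose MeDIP signal alone also passed over all probes, with a difference of -0.88 (limma adjusted p = 0.0151), while its input signal differed by -0.26 (limma adjusted p = 0.264).

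At Ch_220697_0022780 (chr12:57637610-57637657), also in Nkx2-1 region 2, the ratio was 2.77, 2.39 and 2.91 on the inulin arrays, against 3.25, 3.41 and 3.61 on the obesity arrays. The difference was -0.73 (SE 0.17, limma adjusted p = 0.0457). Its ratio was above 2 on every array. With all arrays set to an equal spread of ratios the difference was -0.061. The third probe, Ch_220697_0022785 (chr12:57638723-57638767), was named after its values were seen, because it passed. Its ratio was 0.25, 0.41 and 0.44 on the inulin arrays, against 0.81, 0.97 and 0.78 on the obesity arrays, a difference of -0.48 (SE 0.12, limma adjusted p = 0.0498). None of the 3 Nkx2-1 probes stayed past the threshold in every alternative: of the 16 tried, Ch_220697_0022787 passed in 9, Ch_220697_0022780 in 5 and Ch_220697_0022785 in 3.

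Neither whole region of Nkx2-1 passed. Region 2 had a ratio of 0.36, 0.37 and 0.35 on the inulin arrays, against 0.32, 0.58 and 0.46 on the obesity arrays. The inulin arrays lay close together and between the lowest and the middle obesity array. The difference was -0.091 in region 2 (95% confidence interval -0.28 to 0.094, limma adjusted p = 0.497) and -0.042 in region 1 (-0.31 to 0.23, limma adjusted p = 0.854).

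**Figure D3:**
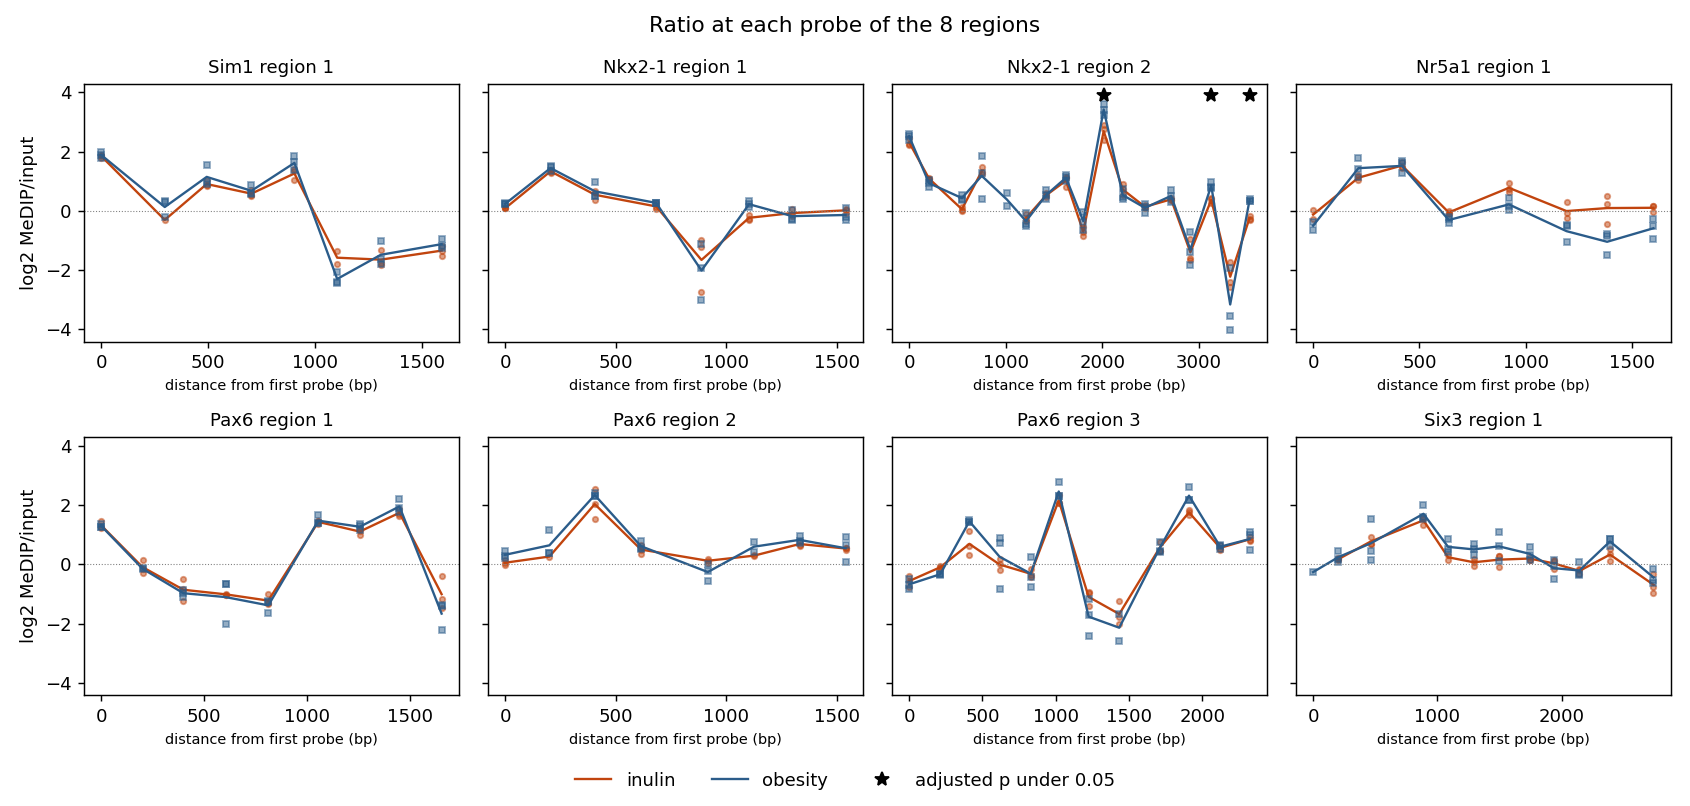
Log2 MeDIP over input ratio at each probe (y axis, array median 0) against the distance from the first probe of the region (x axis, bp) for the 8 regions, with points for arrays, lines for the means of the inulin and obesity arrays and stars for probes at a limma adjusted p under 0.05. The 3 stars are all in Nkx2-1 region 2, and at Nr5a1 the inulin line lies above over the last 4 probes.

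Pax6 had 3 regions whose differences were small and of mixed sign. In region 3, the one with the most probes, the ratio was 0.26, 0.26 and 0.18 on the inulin arrays, against 0.59, 0.079 and 0.37 on the obesity arrays. Obesity array 2 lay below every inulin array and the other obesity arrays above, so the obesity spread covered the inulin values. The differences were 0.070 in region 1 (95% confidence interval -0.15 to 0.29), -0.10 in region 2 (-0.27 to 0.066) and -0.11 in region 3 (-0.38 to 0.15), with limma adjusted p = 0.675, 0.399 and 0.563. In region 3, 1 probe had no value on obesity array 1. Over the 11 probes of that region measured on all arrays, the ratio was 0.39, 0.45 and 0.38 on the inulin arrays. It was 0.59, 0.24 and 0.64 on the obesity arrays, a difference of -0.083 (limma adjusted p = 0.629).

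The 2 Pax6 probes with the lowest p lay in region 3 and had dim input. At chr2:105514786-105514839 the ratio was 0.33, 0.63 and 1.12 on the inulin arrays, against 1.431, 1.431 and 1.4996 on the obesity arrays (limma adjusted p = 0.0576), with MeDIP well above background on 3 arrays and input on 2. At chr2:105516285-105516329 it was 1.76, 1.68 and 1.84 on the inulin arrays, against 2.60, 2.19 and 2.18 on the obesity arrays (limma adjusted p = 0.0578), with input well above background on 1 array.

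Sim1 did not pass either, and its region difference changed with the probes counted. With outlier spots left out, each inulin value is a mean over 7 of the 8 probes, not the same 7 on inulin array 2 as on the others, and each obesity value is a mean over all 8. On these means the ratio was -0.045, 0.20 and 0.029 on the inulin arrays, against -0.00018, 0.20 and -0.0029 on the obesity arrays. The groups overlapped almost fully, with a difference of -0.0049 (SE 0.091, 95% confidence interval -0.21 to 0.20, limma adjusted p = 0.981). Over the 6 probes measured on every array it was 0.25, 0.28 and 0.26 on the inulin arrays, against 0.35, 0.56 and 0.44 on the obesity arrays. There each inulin array was below each obesity array, with a difference of -0.19 (SE 0.076, limma adjusted p = 0.135, exact permutation p = 0.1). On the means over all measured probes, 35.0% of all regions had groups that did not overlap in either direction. The difference was -0.093 with outlier spots kept and 0.18, of the opposite sign, with the median of the probes in place of their mean (limma adjusted p = 0.448 and 0.405).

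Within the Sim1 region 1 probe went against the other 6 that could be tested. At chr10:50615275-50615323 the ratio was -1.82 and -1.36 on inulin arrays 1 and 3, with no value on inulin array 2, against -2.41, -2.08 and -2.43 on the obesity arrays. It was higher on both measured inulin arrays, with a difference of 0.72 (SE 0.20, limma adjusted p = 0.071). At the neighbouring probe chr10:50615075-50615119 the ratio was 1.40, 1.35 and 1.03 on the inulin arrays, against 1.63, 1.84 and 1.38 on the obesity arrays, with overlap and a difference of -0.36 (limma adjusted p = 0.188).

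Each channel was also tested by itself, after setting its median to 0 on each array. No region of the 5 genes passed on the MeDIP signal, 0 of 8 against 0.253% of all regions, or on the input signal, 0 of 8 against 2.14% of all regions. Counting unadjusted p-values under 0.05 instead, the MeDIP signal gave 0 of 8, against 21.0% of all regions, and the input signal 3 of 8, against 24.4%. The median difference over the 8 regions was 0.12 on the MeDIP and 0.12 on the input signal, against 0.066 and 0.043 over all regions. With outlier spots left out, some of these means are not over the same probes on every array. The Sim1 differences were 0.27 on the MeDIP and 0.30 on the input signal. Over the 6 Sim1 probes measured on every array they were 0.024 and 0.23. In Pax6 region 2 (-0.31 and -0.19) a bright probe was left out on inulin arrays 1 and 3 alone.

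The Six3 region had the strongest input difference. Its centred log2 input signal was 0.76, 0.82 and 0.98 on the inulin arrays, against 0.58, 0.50 and 0.46 on the obesity arrays. Every inulin array was above every obesity array, with a difference of 0.34 (SE 0.084, limma adjusted p = 0.0841). The Six3 MeDIP signal differed by 0.15 (SE 0.10, limma adjusted p = 0.422), in the direction opposite to the ratio. Over the 10 Six3 probes of the region with a value on all arrays the input difference was 0.37 and passed (limma adjusted p = 0.0218). That fit was chosen after the data were seen, and how many of all regions it called on the input was not counted.

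Pax6 region 3 and Nkx2-1 region 2 also had input signals higher on every inulin array, a pattern seen in 22.0% of all regions. The Pax6 region 3 input was -0.47, -0.59 and -0.41 on the inulin arrays, against -0.91, -0.70 and -0.73 on the obesity arrays, a difference of 0.29 (limma adjusted p = 0.123). The Nkx2-1 region 2 input was 0.14, 0.34 and 0.32 on the inulin arrays, against 0.11, 0.012 and 0.078 on the obesity arrays, a difference of 0.20 (limma adjusted p = 0.201). In both the MeDIP difference was also positive but smaller, 0.16 and 0.090, so the ratio difference had the opposite sign. With outlier spots left out, these means are not over the same probes on every array. Obesity array 1 lacks the Pax6 probe from chr2:105515809, whose input was 2.45 to 3.34 on the other arrays. Obesity arrays 1 and 2 alone count an Nkx2-1 probe from chr12:57636608, with input -0.38 and -1.38. Over the probes measured on every array, the input groups overlapped in the Nkx2-1 window (24 probes) and not in the Pax6 window (25 probes).

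At Nr5a1 the MeDIP signal had the larger of the 2 channel differences, and neither passed. Its MeDIP signal was 2.37, 1.63 and 2.19 on the inulin arrays, against 1.99, 1.53 and 1.58 on the obesity arrays, and its input signal was 1.79, 0.99 and 1.88 on the inulin arrays, against 1.94, 1.17 and 1.67 on the obesity arrays. Array 2 of each group lacks the first probe in these means, and both groups overlapped in both channels. The MeDIP difference was 0.36 (SE 0.22, limma adjusted p = 0.38), and 0.21 to 0.58 when 1 array was left out. The input difference was -0.042 (SE 0.29, limma adjusted p = 0.943), and -0.25 to 0.24 when 1 array was left out.

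Over the 7 Nr5a1 probes measured on all arrays, the MeDIP signal was 1.67, 1.63 and 1.496 on the inulin arrays, against 1.36, 1.53 and 0.93 on the obesity arrays. The input signal on them was 1.01, 0.99 and 1.11 on the inulin arrays, against 1.25, 1.17 and 0.96 on the obesity arrays. The arrays of a group lay closer together than with the first probe on some arrays alone, except in the obesity MeDIP signal, and the groups still overlapped in both channels. The differences were 0.33 on the MeDIP signal (limma adjusted p = 0.17) and -0.088 on the input signal (limma adjusted p = 0.508). Whether Nr5a1 differs from the other 4 genes in this was not tested.

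**Figure D4:**
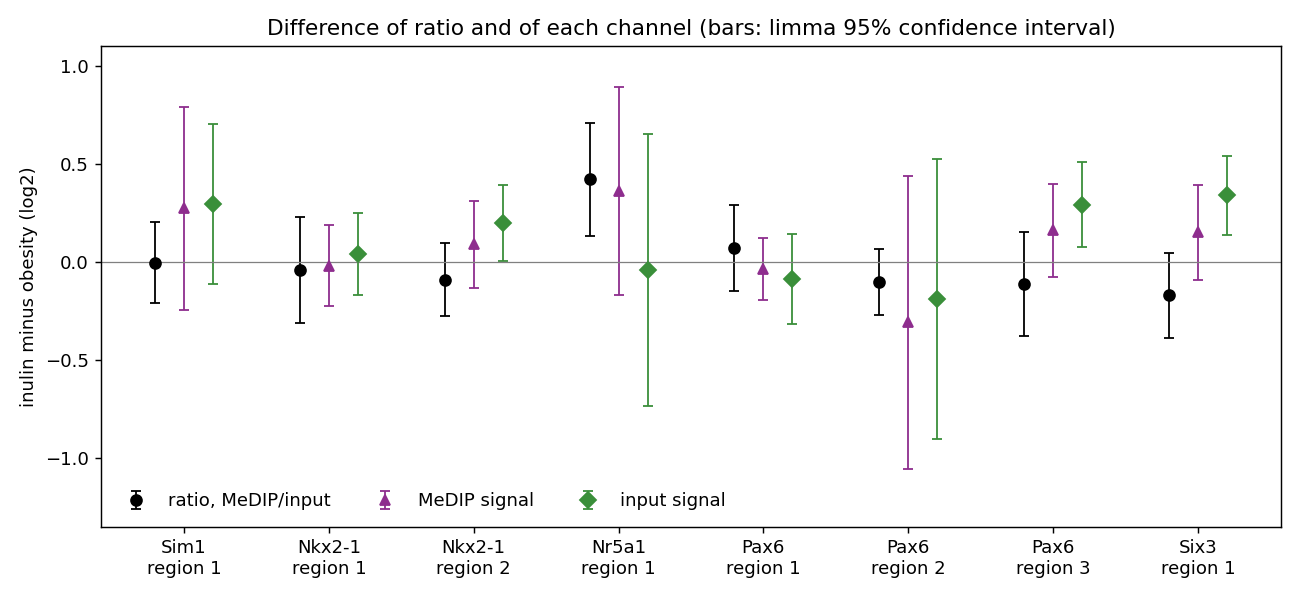
Difference between groups (y axis, inulin minus obesity, log2) of the ratio, the MeDIP signal and the input signal for each of the 8 regions (x axis), with bars for the limma 95% confidence interval. The ratio interval excludes 0 at Nr5a1 alone, and the input interval does so at Nkx2-1 region 2, Pax6 region 3 and Six3. Outlier spots are left out, so the region means do not always count the same probes on every array.

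Probe by probe, the 5 genes had 13 of 79 tested probes past the threshold on the input signal, where 13.7% of all probes passed (7.94% as higher and 5.75% as lower). Of these 12 were higher on the inulin arrays, 5 at Nkx2-1, 4 at Six3, 2 at Pax6 and 1 at Sim1, and 1 at Pax6 was lower. On the MeDIP signal 5 of 79 passed, where 10.6% of all probes did (6.94% as higher and 3.67% as lower), namely 3 higher and 2 lower. Nr5a1 had no probe past the threshold in either channel.

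Averaged over each gene's window, with only probes measured on all 6 arrays, the ratio difference was -0.19 at Sim1, -0.076 at Nkx2-1, 0.43 at Nr5a1, -0.030 at Pax6 and -0.16 at Six3. The exact permutation p over the arrays (two-sided) was 0.1, 0.6, 0.1, 0.6 and 0.2 in that order of genes, with 0.1 the smallest possible. Nr5a1 was the one gene with a positive value, and the values of Sim1 and Six3 lay closer to each other than the SD of their obesity arrays. Without obesity array 2 the Six3 value was -0.050.

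The regions outside the windows whose ratios over the 6 arrays were most like each window mean were chr4:123463830-123465356 for Sim1 (Pearson r = 0.9988), chr11:97361158-97362689 for Nkx2-1 (0.9931), chr5:44485521-44487106 for Nr5a1 (0.999), chr6:85282932-85284660 for Pax6 (0.9897) and chr3:54857896-54860175 for Six3 (0.9952). With 6 arrays that share their scans and groups such values are easily reached: an r over 0.9 was found at 1122 of 22564 regions for Nr5a1, 701 for Sim1, 488 for Six3, 296 for Nkx2-1 and 116 for Pax6.

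Each of the 6 regions outside Nr5a1 and Six3 took the opposite sign in at least 1 alternative. As reported, 6 of the 8 regions were lower in inulin, while on an equal scale 3 were, with a median difference of 0.0079 against 0.018 over all regions. Nkx2-1 region 2 was at 0.0028 and Pax6 region 2 at 0.040 on that scale. The Six3 region stayed negative in all 18 alternatives, from -0.23 to -0.070, and passed in none of them (limma adjusted p = 0.149 to 0.652).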

How the data were processed

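MeDIP DNA (Cy5) and input DNA (Cy3) were measured on 6 two-colour arrays, 3 per group, grouped by their titles. Per the file headers, the authors extracted each array by the protocol ChIP_1100_Jul11 of Feature Extraction 11.0.1.1. Its processed signals are intensity values, background-subtracted and dye-normalized, with a log10 ratio of red over green beside them, per the file headers, equal to that of the processed signals within 1e-04 at 96.8% to 98% of spots. The authors' deposited table holds a score per probe of unstated scale and centring, which correlated at 0.866 to 0.912 with the ratio of the same array and had medians of 0.043 to 0.061. The steps behind that score are not stated in these sources.

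Here, log2 red over green was taken, outlier-marked spots were left out, and each array was centred on its median, without loess or quantile. The spots left out were 4134 to 4863 per inulin array and 1901 to 3666 per obesity array, without overlap. At the probes of the 5 genes they were 5, 5 and 4 on the inulin arrays, against 2, 2 and 3 on the obesity arrays. Region means and probes with values on at least 2 arrays per group were fitted with limma 3.58.1 (R 4.3.3), all 6 arrays, no covariate, Benjamini-Hochberg over all regions or probes; no mm9 annotation was used. The tests were checked on simulated data. Region means of the arrays correlated at 0.932 to 0.983. With 3 arrays per group, their number limits the precision.

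The members and lists were chosen with earlier results of these data known. Named were the 5 genes, all 8 regions, array values for the region with the most probes per gene or an unadjusted p under 0.05, the 2 probes of lowest p per gene, and the most similar region. The alternatives were normexp (offset 50), loess, equal scale, quantile, the authors' table, filters on dim probes, gaps of 300 and 1000 bp, probe medians, blocks for replicate number and slide scan, and each array left out. Keeping outlier spots and using only probes with a value on all arrays were added after seeing the data.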

Additional observations from a re-analysis of the deposited data

How the results depend on the processing

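Among the 8 regions of the 5 genes, 0 passed on the ratio, and 1, Nr5a1, passed with loess, with the replicate block, with probes measured on all arrays and without obesity array 2; leaving out 1 array gave 0 to 1. Of single probes 3 passed, against 9 with normexp, 11 with loess, 1 with quantile normalization, 7 and 9 with input or both channels well above background, 6 with the replicate block, 0 with slide scan as a random block and 0 to 5 without 1 array. Over the whole array 13956 of 170019 probes passed, against 27090 with normexp, 21214 with loess and 4598 with quantile normalization. With input or both channels well above background, 15948 of 156005 and 16096 of 122873 probes of the array passed. The 5 genes had 72 and 64 probes tested in those 2 settings. Without inulin array 1, 2 or 3, 925 of 167208, 701 of 166696 and 2224 of 167153 probes of the array passed. Of the 5 genes 0, 0 and 1 probes did. For the 2 blocks and each obesity array left out, the count over all probes is not given here. Those numbers of single probes cannot be set against the whole array. Over all regions 1675 passed (1267 higher, 408 lower), against 2798 with loess, 911 on an equal scale (485 and 426), 497 with quantile normalization (251 and 246), 582 in the authors' table (248 and 334), 733 with probe medians, 2649 with outlier spots kept, 2699 with the replicate block, 0 with slide scan as a random block (4049 at an unadjusted p under 0.05) and 0 to 2171 without 1 array. The split was 1027 and 894 with normexp and 638 and 704 with both channels above background. With outlier spots kept, 3 regions of the 5 genes passed on the MeDIP and 4 on the input signal, and with probes measured on all arrays 1 passed on the input. How many of all regions passed in these channel fits was not counted, so these numbers cannot be set against the whole array. The input difference of Pax6 region 2 was -0.19 and turned to 0.31 with outlier spots kept (limma adjusted p = 0.0229). The value of -0.19 does not compare like probes, since the probe from chr2:105510203 was left out on inulin arrays 1 and 3 alone. Input at that probe was 4.68 on inulin array 2 and 3.20 to 3.88 on the obesity arrays. The region means were -1.03 to 0.17. Window differences moved to -0.10 on an equal scale and -0.093 with outlier spots kept at Sim1, to -0.22 with probe medians at Nkx2-1 and to 0.21 with normexp at Nr5a1. Without obesity array 2 the Nkx2-1 window was at 0.0099 and the Six3 window at -0.050, against -0.16 with it, and the Pax6 window had the opposite sign in 7 of 15 alternatives. The cause of these changes was not tested. Same-numbered arrays correlated at -0.145, 0.278 and 0.329 in their deviations from the group means. At numbers 2 and 3 the array of each group correlated best with its own number in the other group, and at number 1 neither did. This left a pairing unsettled, and the numbers were not taken to pair the samples. With the replicate block the Nr5a1 region had a limma adjusted p = 0.0184. All values rest on 3 arrays per group.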
